A study of Mus musculus with 4 samples.

Results

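The barcodes described here were those that the quality filter of a bone and marrow CITE-seq experiment left out. CITE-seq counts, in each droplet, the messenger RNA of a cell and the tags of an antibody, here 1 against CD24, and the count is in unique molecular identifiers (UMIs). A barcode was removed when it had fewer than 200 detected genes or more than 20% of its RNA UMIs from the 13 genes of the mitochondrial genome. Of 18100 barcodes, 2430 were removed. They were 1308 of 11371 (11.5%, exact 95% interval 10.9 to 12.1) in the young library and 1122 of 6729 (16.7%, 15.8 to 17.6) in the old library. The members were thus selected on measured values, and neither their gene number nor their mitochondrial share is a finding.

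The young mouse was 6 months old and the old mouse 24 months old. Both carried the INK-ATTAC transgene, an inducible caspase cassette under the p16Ink4a promoter, and neither was treated. The line is kept on a C57BL/6N background, and the sex of these 2 mice was not given in the sources used here. Cells of femur and tibia were digested, freed of red cells by lysis, depleted of lineage-marked blood cells (CD5, B220, CD11b, Gr-1, 7-4 and Ter-119) and sorted as CD45- cells that excluded the dead-cell dye SYTOX blue, so the removed barcodes came from a gate for live cells. With 1 mouse per age, age and library cannot be told apart, and differences between young and old are given as values only. Of the barcode sequences, 25 occurred in both libraries, of which 1 was removed in the young and 5 in the old library.

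The mitochondrial genome encodes subunits of the respiratory chain, and its transcripts stay inside the organelle. A cell whose surface membrane leaks loses cytosolic messenger RNA before RNA held in mitochondria or in the nucleus. This is why a high mitochondrial share is widely used as a sign of damage. The share also differs between healthy cell types. CD24, a small glycoprotein anchored at the cell surface, is carried by red cell precursors, B cell precursors, granulocytes and some skeletal cells.

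Removed barcodes fell into 2 classes that do not overlap. The low-gene class had fewer than 200 genes (588 young and 298 old barcodes), and the high-mitochondrial class had 200 or more genes and over 20% mitochondrial UMIs (720 and 824). The reference was the 10063 young and 5607 old passing barcodes. Nearly all low-gene barcodes were also above the mitochondrial limit, and 2 young and 5 old ones were not. The median mitochondrial share was 80.8% in young and 79.1% in old low-gene barcodes, 36.7% and 40.2% in high-mitochondrial barcodes, and 2.77% and 2.60% in passing barcodes.

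The high share came with both more mitochondrial and far fewer other molecules. Median mitochondrial UMIs per barcode were 581.5 young and 617.5 old in the low-gene class, 365 and 569.5 in the high-mitochondrial class, and 185 and 265 in passing barcodes. Median UMIs outside the mitochondrial genome were 167.5 and 181 in the low-gene class, 554.5 and 687.5 in the high-mitochondrial class, and 6186 and 9419 in passing barcodes. The removed barcodes held 1.93% of the young and 2.74% of the old RNA UMIs, 25.2% and 29.9% of the mitochondrial UMIs, and 25.6% and 35.9% of the CD24 antibody UMIs. Because the mitochondrial share chose the members, all levels below are in counts per 1000000 (CPM), or percent, of the RNA UMIs outside the mitochondrial genome. The 7 low-gene barcodes at or under 20% were nearly all hemoglobin and held 9.89% of the young and 37.9% of the old UMIs of that class. Low-gene levels are therefore given without these 7, which raises those of other genes 1.11-fold in the young and 1.61-fold in the old library, while the gene tests include them unless said otherwise.

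Barcodes just inside and just outside the limits are described here without a test. CD24-high barcodes (defined below) were 33.8% of 77 young barcodes at 18 to 20% and 34.8% of 69 at 20 to 22%. The same shares were 29.2% of 65 and 53.7% of 54 in the old library. At the gene limit they were 41.3% of the 75 young barcodes within 20 genes below it and 38.7% of the 75 within 20 genes above it, against 47.7% of 44 and 42.6% of 47 in the old library.

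CD24 antibody counts were higher in removed than in passing barcodes of both mice. The median count per barcode was 733.5 young and 1176.5 old in the low-gene class, 175.5 and 180 in the high-mitochondrial class, and 92 and 95 in passing barcodes. The quartiles were 135.75 and 1634.75 in young and 133.25 and 2607.5 in old low-gene barcodes, 84.75 and 1052.75 in young and 74.75 and 2003 in old high-mitochondrial barcodes, and 56 and 180 in young and 61 and 177 in old passing barcodes. The distributions overlapped at low counts and parted at high counts. With 2 mice an exact paired permutation test cannot go below p = 0.5, so no test was run on antibody counts, hemoglobin share or lineage shares.

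**Figure D1:**
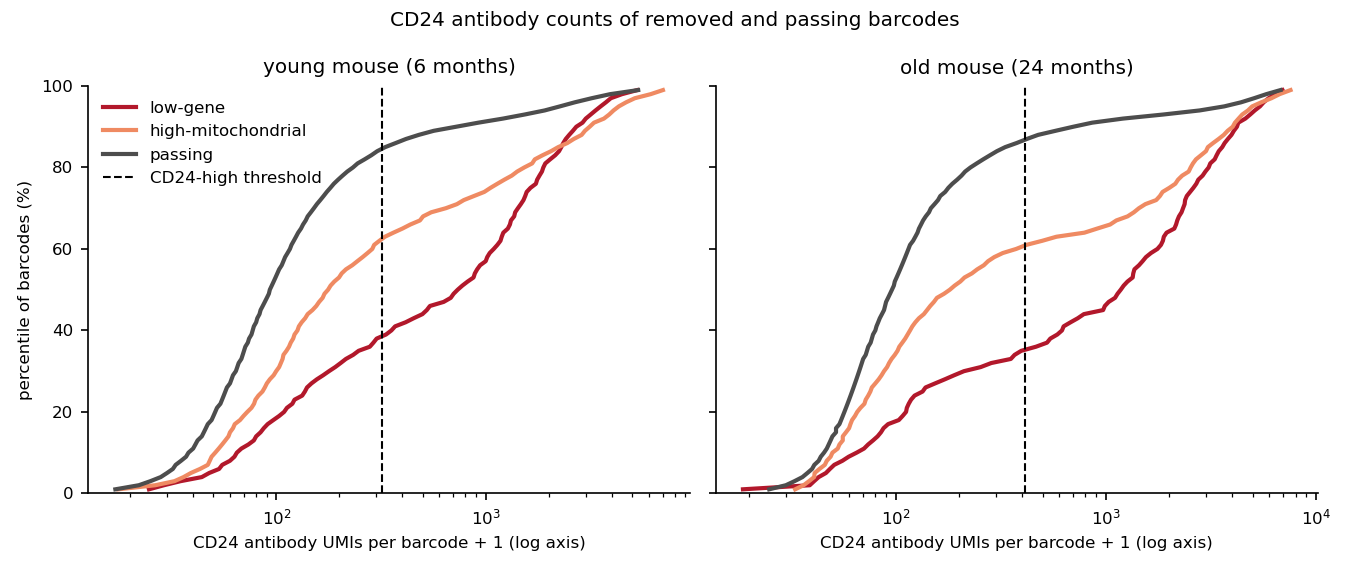
CD24 antibody UMIs per barcode plus 1 (horizontal log axis) against the percentile of barcodes (vertical axis) in low-gene, high-mitochondrial and passing barcodes, young mouse left and old mouse right. The dashed line is the CD24-high threshold of 319 young and 410 old UMIs, and the low-gene curve lies to the right of the passing curve over most of its course.

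A threshold was set in each library on the passing barcodes, at 319 UMIs young and 410 old, by the Otsu method, which finds the value that best parts a distribution with 2 modes. CD24-high barcodes were then 61.6% (exact 95% interval 57.5 to 65.5) of young and 64.8% (59.0 to 70.2) of old low-gene barcodes. They were 37.6% (34.1 to 41.3) and 39.2% (35.8 to 42.6) of high-mitochondrial barcodes, and 15.4% and 13.2% of passing barcodes. Intervals and limits given here cover counting error only. Within 1.5-fold of the threshold lay 64 young and 26 old low-gene, 86 and 54 high-mitochondrial, and 957 and 374 passing barcodes.

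The count in CD24-high barcodes was of like size in removed and passing barcodes, while CD24-high barcodes were more frequent among the removed. Among CD24-high barcodes the median was 1382.5 young and 2224 old in the low-gene class, 1674 and 2545 in the high-mitochondrial class, and 1310 and 2223 in passing barcodes. The median of CD24-low barcodes was 103 and 92 in the low-gene class, 102 and 88 in the high-mitochondrial class, and 79 and 84 in passing barcodes. The removed barcodes thus held antibody counts of like size over little RNA. Gene number and mitochondrial share chose these barcodes, so the little RNA follows partly from the rule, and the ratio below is a description. Per 1000 UMIs outside the mitochondrial genome, antibody UMIs summed to 6478 young and 9266 old in the low-gene class (5839 and 5758 with the 7 hemoglobin-rich barcodes), 1025 and 1063 in the high-mitochondrial class, and 49.0 and 41.8 in passing barcodes.

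The difference was also present at matched RNA depth. Among barcodes of 1000 to 2000 UMIs outside the mitochondrial genome, 40.4% of young and 32.5% of old high-mitochondrial barcodes were CD24-high, against 11.8% and 9.06% of passing barcodes. At 2000 to 5000 UMIs the shares were 59.3% and 56.7% against 11.0% and 11.8%. Above 5000 UMIs, 13 of 13 young and 18 of 21 old high-mitochondrial barcodes were CD24-high. The share was highest in the deepest high-mitochondrial barcodes, while in passing barcodes it was 4.76 to 17.9% over the depth steps from 500 UMIs upward. Passing barcodes with 10 to 20% mitochondrial UMIs lay between, at 32.8% and 33.7%.

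**Figure D2:**
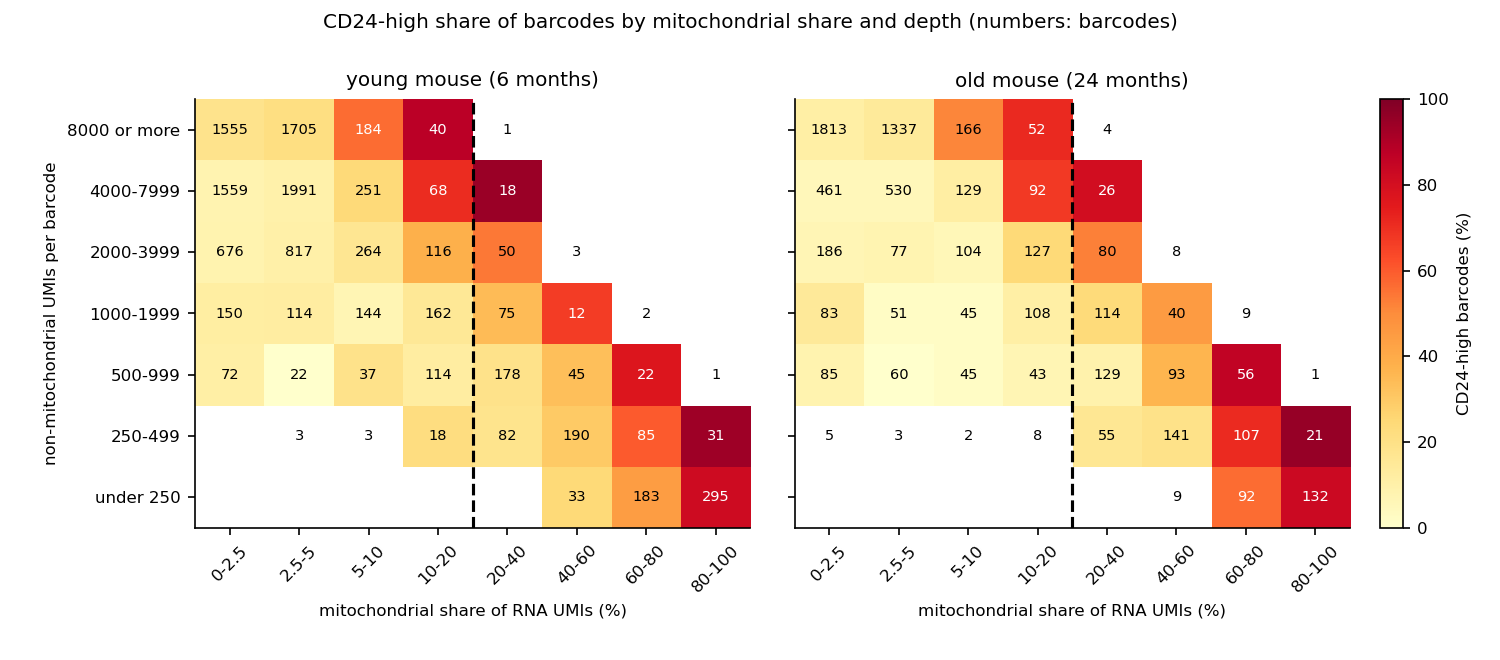
CD24-high barcodes (colour, percent) by mitochondrial share of RNA UMIs (horizontal axis, %) and UMIs outside the mitochondrial genome (vertical axis), for the young and the old mouse. The number in each cell is its barcodes, cells with fewer than 10 are left white, and the dashed line marks the 20% limit; colour is deepest in deep barcodes of 10 to 40% and in shallow barcodes of 80 to 100%.

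Across the whole range of mitochondrial share the CD24-high share had 2 rises. Among barcodes of 200 or more genes it was 12.4% young and 9.97% old at 0 to 2.5% mitochondrial UMIs, and 32.8% and 33.7% at 10 to 20%. From 20 to 60% it was 28.9 to 34.7% in the young and 22.9 to 31.4% in the old library. At 60 to 100% it was 74.8% of 103 young and 85.2% of 149 old barcodes, with a median antibody count of 1412 and 2375. The barcodes richest in mitochondrial RNA were thus mostly CD24-high in both mice.

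Transcript classes moved along the same axis, and most began to move below the 20% limit. Messenger RNA of cytosolic ribosomal proteins fell from 17.4% young and 16.0% old at 0 to 2.5% mitochondrial UMIs to 6.20% and 5.86% at 60 to 100%. The 4 features that collect ribosomal RNA reads (Gm42418, AY036118, Gm26917 and Lars2) went from 1.07% and 0.948% to 23.3% and 27.2%. Malat1, a long RNA kept in the nucleus, went from 39522 CPM young and 34364 old to a peak of 121215 at 40 to 60% in the young and 128953 at 30 to 40% in the old library. At 60 to 100% Malat1 was back at 43886 and 27077 CPM.

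**Figure D3:**
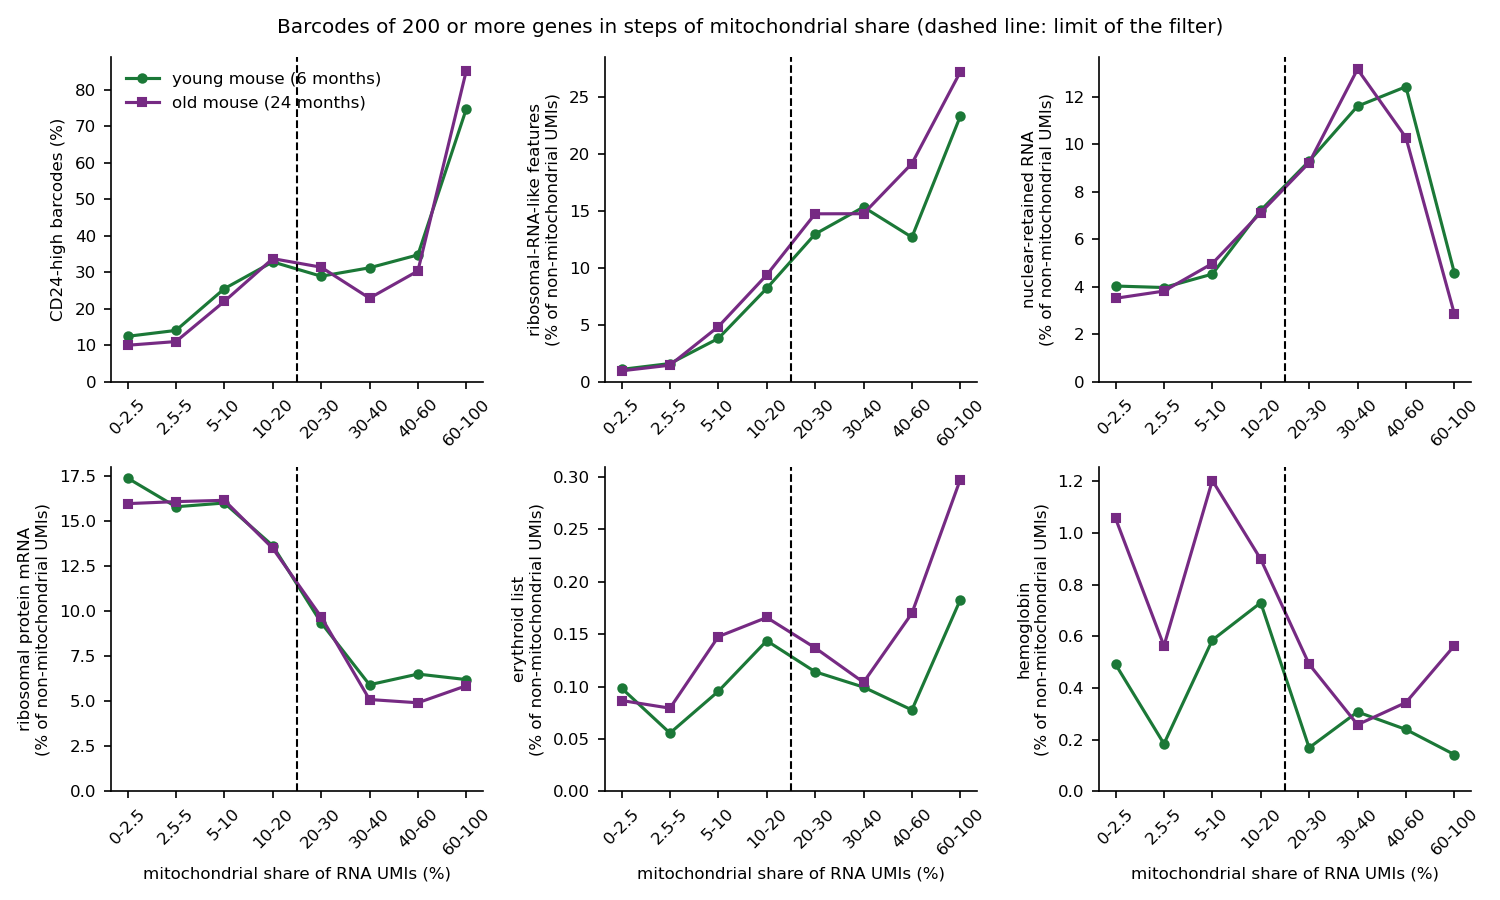
Barcodes of 200 or more genes in steps of mitochondrial share (horizontal axis, % of RNA UMIs): CD24-high share, ribosomal-RNA-like features, nuclear-retained RNA, ribosomal protein mRNA, the erythroid list and hemoglobin (vertical axes, %), young circles and old squares. The dashed line is the 20% limit; nuclear-retained RNA has its maximum between 30 and 60% and falls at 60 to 100%, where the CD24-high share is highest.

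Genes were compared between classes with edgeR's quasi-likelihood test on UMIs summed per mouse and class, with the mouse as a block and Benjamini-Hochberg adjustment over all genes tested. The 6 sums leave 2 residual degrees of freedom, the estimated spread was wholly shared over genes, and 2 mice do not measure how mice vary. Of 9692 genes tested, 34.6% were higher and 28.3% lower in high-mitochondrial than in passing barcodes (3357 and 2744 genes). With the low-gene class, 7.46% were higher and 9.86% lower than in passing barcodes (723 and 956). Between the 2 removed classes 0.836% were higher and 0.764% lower in the low-gene class (81 and 74), which became 0 genes without the mouse as a block and 39 at a mitochondrial limit of 30%. The split by direction depends on the scaling: with DESeq2's size factors in edgeR it was 3018 and 3061 for high-mitochondrial against passing, and 115 and 55 for low-gene against high-mitochondrial. DESeq2 gave 764 higher and 471 lower for low-gene against passing, turning which direction had more calls, and 86 and 20 for low-gene against high-mitochondrial. Against passing barcodes of 10 to 20% alone, 434 genes were higher and 601 lower in the high-mitochondrial class, and 126 and 155 in the low-gene class. These calls were 10.8% and 2.95% of the 9541 genes tested against that reference.

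Most fibroblast, tendon and marrow stroma genes tested fell in both removed classes, while osteoblast, chondrocyte and pericyte genes were mixed. Counts of a list are over its members that passed the filter on low counts, and the other members were not tested. The fibroblast list fell in 8 of 8 tested genes in the high-mitochondrial class, with a median log2 difference of -2.83 beside 0.11 over all genes, and in 7 of 8 in the low-gene class. Igfbp6, which binds insulin-like growth factors, was at 142 CPM young and 89.4 old in high-mitochondrial barcodes and at 1099 and 755 in passing barcodes. Its log2 difference was -3.03 ± 0.20 (SE, edgeR adjusted p = 5.23e-50), and both removed levels lay under both passing levels. Clec3b, which encodes tetranectin, fell by 3.03 ± 0.21 on the log2 scale (adjusted p = 3.53e-46), from 658 and 472 to 70.2 and 66.3 CPM. Against passing barcodes of 10 to 20% the fibroblast list fell in 6 of 8 genes in the high-mitochondrial and in 0 of 8 in the low-gene class. Over all genes, 10.8% and 2.95% were called there in either direction.

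The marrow stroma list, which marks the Cxcl12-rich cells that hold blood stem cells, fell less than the fibroblast list. Summed, it stood at 5864 CPM young and 2422 old in high-mitochondrial barcodes, at 4041 and 4494 in low-gene barcodes, and at 10267 and 9976 in passing barcodes. In the high-mitochondrial class 7 of 8 tested genes fell (median log2 -1.34), and 7 of 8 fell in the low-gene class (median -1.38). Cxcl12, a chemokine that retains blood stem cells, was at 3531 and 1459 CPM in high-mitochondrial and 6747 and 6415 in passing barcodes, a log2 difference of -1.52 ± 0.18. Adipoq, the gene of adiponectin, fell by 1.83 and Lepr, the leptin receptor gene, by 0.78 on the log2 scale, while Ebf3 did not pass (0.38, adjusted p = 0.0504). Against passing barcodes of 10 to 20%, 3 of 8 genes fell in the high-mitochondrial class, beside 10.8% of all genes called in either direction.

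Osteoblast genes moved in both directions. Of 9 tested in the high-mitochondrial class, Runx2, Sp7 and Dmp1 rose and Bglap, Bglap2, Ibsp and Spp1 fell, 33.3% and 44.4% beside 34.6% and 28.3% of all genes, so the share that rose was close to that of genes at large. Runx2 and Sp7 encode the transcription factors that set osteoblast fate, and the genes that fell encode secreted proteins of bone matrix. Runx2 was at 288 CPM young and 243 old in high-mitochondrial barcodes, 134 and 134 in passing barcodes, and 99.3 and 73.7 in low-gene barcodes. Its rise in the high-mitochondrial class was 0.97 ± 0.17 on the log2 scale (adjusted p = 7.64e-08). Its low-gene level rested on few UMIs, so it is not ranked against the passing level. Dmp1 rested on the young library, with a log2 difference of 2.02 young and 0.07 old, and Bglap on the old, with 0.02 young and -1.61 old. Bglap and Bglap2 are near copies, so their counts can be split between them. With the narrower reference of 10 to 20%, 1 osteoblast gene rose and 1 fell. Of all genes, 10.8% were called with that reference in the high-mitochondrial and 2.95% in the low-gene class. Counts this small do not set the list apart.

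Matrix genes as a list fell in 11 of 13 in both removed classes, Col1a1 and Col1a2 being exceptions in the high-mitochondrial class. Col1a1, the main bone collagen gene, was at 7687 CPM young and 12103 old in high-mitochondrial, 4815 and 5378 in low-gene and 5954 and 10505 in passing barcodes. The high-mitochondrial difference did not pass (0.27, adjusted p = 0.17). Col1a2, its partner in type I collagen, was at 5424 and 7670 CPM against 5032 and 8436 and did not pass either (-0.03, adjusted p = 0.882). The other 11 genes of the list fell: Sparc, for example, which encodes a collagen-binding protein, fell by 1.91 ± 0.18 on the log2 scale. In the high-mitochondrial class tendon genes fell in 6 of 6 tested, chondrocyte genes in 4 of 8 and skeletal muscle genes in 3 of 4, and pericyte genes fell in 3 of 7, Myh11 rising. In the low-gene class, where 9.86% of all genes fell, these lists fell in 4 of 6, 1 of 8, 0 of 4 and 1 of 7.

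**Figure D4:**
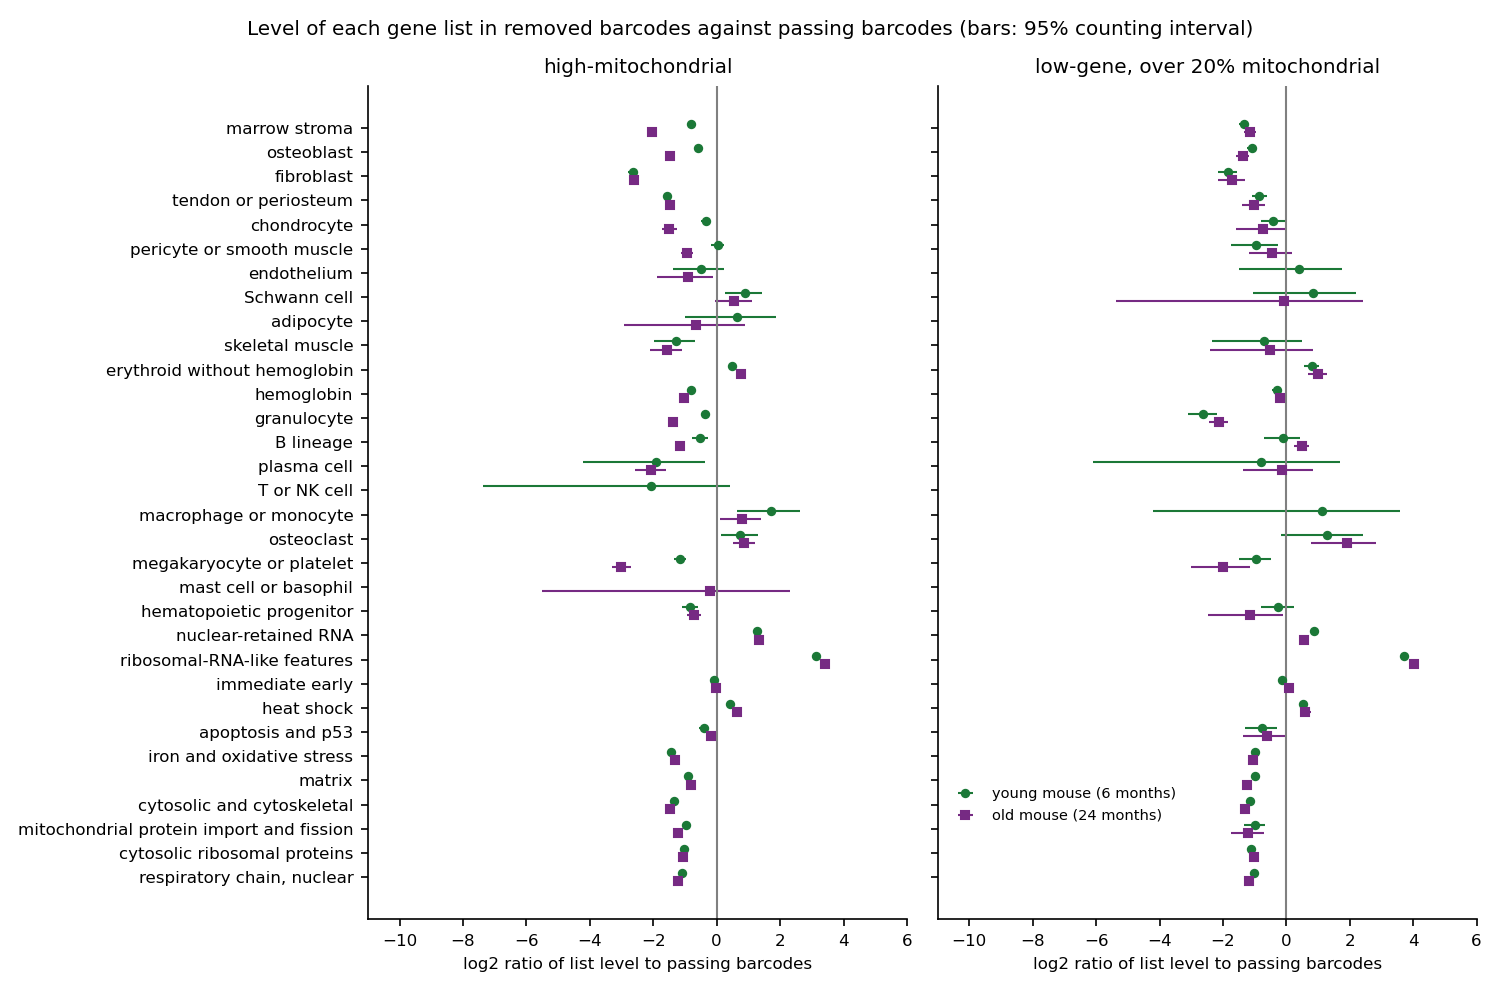
Summed level of each gene list in high-mitochondrial barcodes (left) and in low-gene barcodes over 20% mitochondrial (right) against passing barcodes, as a log2 ratio (horizontal axis), young circles and old squares. Bars are 95% counting intervals, and a list with 0 UMIs has no point; fibroblast, marrow stroma and ribosomal protein lists lie left of 0, ribosomal-RNA-like features far to the right.

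Erythroid genes outside hemoglobin rose in more members than any other marker list of the high-mitochondrial class. In that class 9 of 12 rose, beside 34.6% of all genes, and Car1 and Bpgm fell, with a median log2 difference of 1.59. In the low-gene class 8 of 12 rose and 1 fell, and 5 rose when the 7 barcodes under 20% were left out. The summed list stood at 1103 CPM young and 1507 old in high-mitochondrial barcodes, 1370 and 1768 in low-gene barcodes (1584 and 2710 with those 7) and 788 and 895 in passing barcodes. Against passing barcodes of 10 to 20%, which carry the list themselves, 1 rose and 2 fell in the high-mitochondrial class and 3 rose in the low-gene class. Of all genes, 10.8% and 2.95% were called in these comparisons in either direction.

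The erythroid genes that rose include those of anion transport and heme synthesis. Slc4a1, the band 3 anion exchanger gene, was at 86.9 CPM young and 195 old in high-mitochondrial and 17.4 and 56.8 in passing barcodes, a log2 rise of 1.98 ± 0.18. Car1, an early erythroid carbonic anhydrase gene, was at 310 and 238 against 544 and 463 CPM and fell by 0.90 ± 0.18 on the log2 scale. Alas2, which starts heme synthesis in red cell precursors, rose by 1.72 ± 0.24 in the high-mitochondrial class. Its low-gene level was 49.6 and 147 CPM, and 179 and 1052 with the 7 barcodes.

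Pooled hemoglobin did not follow the erythroid list. In high-mitochondrial barcodes it was 0.205% young and 0.427% old of UMIs outside the mitochondrial genome, under the 0.355% and 0.877% of passing barcodes. A part of the passing share lay in few barcodes. In all, 14 young and 14 old passing barcodes, each over 50% hemoglobin, held 34.1% and 21.3% of it. Without them it was 0.234% and 0.692%, still above the pooled high-mitochondrial share. As a mean of single barcodes without those, hemoglobin was 0.222% young and 0.395% old in high-mitochondrial and 0.148% and 0.490% in passing barcodes, so the young order turned. The share of barcodes with a globin UMI also went the other way when barcodes were thinned to 200 UMIs. Hbb-bs was seen in 11.8% of young and 21.97% of old high-mitochondrial against 3.62% and 7.45% of passing barcodes (22.5% and 43.6% against 18.9% and 43.7% before thinning), and Hba-a1 in 8.47% and 12.6% against 2.86% and 5.99%. Hbb-bs, an adult beta globin gene, fell in the pooled sums by 0.93 ± 0.19 on the log2 scale (adjusted p = 3.09e-06), from 1658 and 4048 to 900 and 2103 CPM. Hba-a1 fell by 1.16 and Hbb-bt by 0.98, and Hba-a2 did not pass (-0.34, adjusted p = 0.101). The copies within each globin pair are nearly identical, so counts of single copies are uncertain.

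In low-gene barcodes the pooled hemoglobin share was 9.78% young and 37.1% old, and it rested on the 2 young and 5 old barcodes under 20% mitochondrial. These 7 had 82.2 to 97.9% hemoglobin, 62 to 159 genes and 715 to 12489 RNA UMIs, and none was CD24-high (antibody counts 46 to 153). Without them the low-gene share was 0.290% and 0.768%, under the passing share of all barcodes and above the passing share that leaves out barcodes over 50% hemoglobin. The low gene number that selected them is that of a barcode with few transcripts besides globin, so this share is a description of the rule. No high-mitochondrial barcode was over 50% hemoglobin. The ratio of alpha to beta globin UMIs was 0.662 young and 0.582 old in high-mitochondrial, 0.802 and 0.782 in low-gene and 0.612 and 0.616 in passing barcodes.

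Proliferation genes, a list of 16 chosen after the values were seen and given with no list test, stood higher in the removed classes. The list summed to 4492 CPM young and 6342 old in high-mitochondrial, 8608 and 9210 in low-gene and 901 and 1007 in passing barcodes. Mki67, whose protein coats mitotic chromosomes, was at 1609 and 2508 CPM in high-mitochondrial, 4865 and 5636 in low-gene and 162 and 227 in passing barcodes. This 1 gene thus held most of the low-gene sum of the list in both mice. Its log2 rise was 3.38 ± 0.19 in the high-mitochondrial and 4.74 ± 0.20 in the low-gene class, and the low-gene level exceeded the high-mitochondrial one by 1.35 ± 0.18 (adjusted p = 5.60e-11). Passing barcodes of 10 to 20% held 1036 and 1471 CPM, and against them the rises of Mki67 were 0.73 and 2.11. Cenpe, a centromere motor gene, rose by 4.41 ± 0.25 in the low-gene class. Top2a, which encodes a topoisomerase of dividing cells, rose by 2.33 ± 0.18 in the high-mitochondrial class, and its level did not pass between the removed classes (-0.29).

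Other blood lineages were low or uneven. Over all genes, 34.6% were higher and 28.3% lower in the high-mitochondrial class, and 7.46% and 9.86% in the low-gene class. Beside these shares, counts such as 1 of 7 or 1 of 6 do not set a list apart. The granulocyte list fell in 6 of 8 and rose in 2 (Cxcr2 and Csf3r) in the high-mitochondrial class. S100a8, a neutrophil alarmin gene, was at 789 CPM young and 994 old in high-mitochondrial, 99.3 and 571 in low-gene and 909 and 2748 in passing barcodes. Camp, a gene of secondary granules, fell by 4.53 ± 0.31 on the log2 scale, and against passing barcodes of 10 to 20% its difference was -0.12. The B lineage list fell in 6 of 7 in the high-mitochondrial class, while in the low-gene class 0 of 7 fell and 1 rose. Without the 7 hemoglobin-rich barcodes, the summed low-gene list had log2 ratios to passing of -0.11 young and 0.48 old. Counting intervals were -0.72 to 0.43 and 0.25 to 0.71. Shares of barcodes with Ighm cover only those with 200 or more UMIs outside the mitochondrial genome. These were 203 young and 129 old low-gene barcodes, the 7 hemoglobin-rich ones included. Ighm, thinned to 200 UMIs, was in 24.0% of such old low-gene, 8.37% of high-mitochondrial and 2.02% of passing barcodes. Young shares were 0.493%, 1.25% and 1.52%. Unthinned old shares were 27.1%, 24.9% and 33.3%. Pf4, a platelet chemokine gene, was at 153 and 42.1 CPM in high-mitochondrial, 446 and 540 in passing and 13.7 and 10.7 in passing barcodes of 10 to 20%, so its direction turned with the reference. The megakaryocyte list fell in 3 of 4 tested genes and summed to 347 CPM young and 203 old in low-gene and 675 and 808 in passing barcodes. Hematopoietic progenitor genes rose in 1 and fell in 1 of 6.

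Lists of several other cell types of marrow were at or near 0 in removed barcodes. T or NK cell, mast cell and adipocyte lists had 0 to 5 UMIs in each removed class of each mouse. The endothelial list had 0 to 14 UMIs and the macrophage list 0 to 22. Low counts here do not by themselves set removed barcodes apart from passing ones. In high-mitochondrial against passing barcodes the macrophage list had a log2 ratio of 1.73 young and 0.80 old. The counting intervals were 0.66 to 2.62 and 0.12 to 1.41. The endothelial list went the other way, at -0.51 (-1.38 to 0.24) and -0.92 (-1.87 to -0.11). The osteoclast list had 27 UMIs young and 77 old in high-mitochondrial barcodes (41.2 and 81.0 CPM, against 24.6 and 44.3 in passing barcodes). Elane and Mpo, genes of early granulocyte precursors, had at most 1 UMI in any removed class.

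Nuclear and ribosomal RNA took a larger share in the removed barcodes, and RNA of the cytosol a smaller one. Nuclear-retained RNAs rose in 6 of 6 tested in the high-mitochondrial class and in 4 of 6 in the low-gene class. Malat1 was at 96565 CPM young and 93970 old in high-mitochondrial, 73517 and 54632 in low-gene and 40063 and 37215 in passing barcodes. Both removed classes thus lay above the passing class in both mice, and the old low-gene level with the 7 hemoglobin-rich barcodes was 34042. Meg3, another noncoding nuclear RNA, rose by 1.57 ± 0.17 on the log2 scale in the high-mitochondrial class. Gm42418, which overlaps a ribosomal RNA repeat, was at 126708 and 147419 CPM in high-mitochondrial, 189308 and 235232 in low-gene and 14551 and 14190 in passing barcodes.

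Of the ribosomal protein genes 79 of 82 fell in the high-mitochondrial class (median log2 -1.11) and 78 of 82 in the low-gene class (median -1.10), none rising. Nuclear genes of the respiratory chain fell in 71 of 80 and 56 of 80, opposite to the transcripts of the mitochondrial genome that chose the barcodes. Against passing barcodes of 10 to 20% the respiratory chain list fell in 55 and 8 of 80. With that reference 10.8% and 2.95% of all genes were called in either direction. The list of mitochondrial protein import and fission fell in 8 of 12 and 3 of 12, and in the high-mitochondrial class Dnm1l, a fission gene, rose. The cytosolic and cytoskeletal list fell in 13 of 15 and 11 of 15. Vim, the gene of the filament protein vimentin, was at 482 and 452 CPM in high-mitochondrial, 1102 and 976 in low-gene and 2508 and 2558 in passing barcodes, and the low-gene level exceeded the high-mitochondrial level by 1.17 ± 0.21 (adjusted p = 8.11e-06). The iron and oxidative stress list fell in 8 of 10, among them Fth1 (ferritin heavy chain) by 1.44 ± 0.18 and Mt1 (metallothionein) by 1.82 ± 0.18 on the log2 scale, and Sod1 rose.

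Stress genes gave no single direction. Of the heat shock list 4 of 9 rose and 2 fell in the high-mitochondrial class, where 34.6% of all genes rose and 28.3% fell. Hspa1a, an inducible chaperone gene, was at 1005 CPM young and 1028 old in high-mitochondrial, 1340 and 1013 in low-gene and 597 and 395 in passing barcodes, and its high-mitochondrial rise was 1.06 ± 0.17 on the log2 scale. Hspe1, which encodes a chaperone inside mitochondria, fell by 1.04 ± 0.18. Of the immediate early list, 2 of 11 rose (Fosb and Egr1) and 4 fell (Fos, Junb, Atf3 and Zfp36) in the high-mitochondrial class, and none was called in the low-gene class, where 7.46% and 9.86% of all genes were. Of the apoptosis and p53 list, 3 of 10 rose (Bcl2l11, Mdm2 and Ddit3) and 3 fell (Bax, Cdkn1a and Phlda3), close to the shares over all genes.

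The largest rises among genes with at least 20 UMIs per mouse included 2 of the 4 features that collect ribosomal RNA reads. In the high-mitochondrial class they were Gm26917 (5.12 ± 0.21), Recql4 (3.77 ± 0.31), Ankle1 (3.62), Hist1h2br (3.59), Fanca (3.57), Polq (3.57), Hpn (3.52) and Lars2 (3.47). Recql4 is a DNA helicase gene, Polq a repair polymerase gene and Fanca a gene of the Fanconi anemia pathway. The largest falls were Camp (-4.53, with 5 young and 6 old UMIs), Ltf (-3.96, with 0 and 5) and Ngp (-3.93, with 4 and 17), all genes of neutrophil granules, besides Gsc, Dhx58os, Npy, Pla1a and Ifitm6, which had 0 to 3 UMIs per mouse in the high-mitochondrial class, so that the size of their fall is not given. Gsc had 0 UMIs in the high-mitochondrial class of both mice, which with a floor of 3 UMIs per mouse makes it at least 3.23-fold lower in the young and 4.06-fold lower in the old library.

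In the low-gene class the largest rises were Gm26917 (5.89), Hba-a2 (5.82), Hbb-bs (5.68), Alas2 (5.58), Hba-a1 (5.29), Hbb-bt (4.89), Mki67 (4.74) and Cenpe (4.41). The size of the rises of the 4 globin genes and Alas2 rested on the 7 hemoglobin-rich barcodes. Without those 7, Hbb-bs, Hba-a1 and Hbb-bt turned, while Hba-a2 and Alas2 kept their direction. The Alas2 level without them, given above, lay over its passing level of 7.17 young and 23.0 old CPM, scaled as in the test. The largest falls (Arhgdib, Arl3, Gm4951, Glrx2, Stx7, Cib1, Cxcl9 and Ro60) had 0 UMIs in the low-gene class of both mice. By the floor, Arhgdib was at least 3.96-fold lower in the young and 3.29-fold lower in the old library. For the other 7 the floor allowed at least 1.36 to 3.37-fold in the young and 1.499 to 2.70-fold in the old library.

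CD24 antibody status parted the removed barcodes into unlike sets, and for erythroid and proliferation lists it parted passing barcodes as well. This comparison was added after the values had been seen. It used 8 sums by mouse, removal and CD24 status, without the 7 barcodes under 20% mitochondrial, and had 3 residual degrees of freedom. Of 14819 genes tested, 14.2% were higher and 13.9% lower in CD24-high than in CD24-low removed barcodes. Erythroid genes rose in 11 of 12 (median log2 4.08), hemoglobin genes in 4 of 4 (1.96), ribosomal protein genes in 76 of 82 (1.36) and granulocyte genes in 4 of 11. Matrix genes fell in 12 of 13, marrow stroma genes in 6 of 8, osteoblast genes in 6 of 10, pericyte genes in 6 of 9, immediate early genes in 9 of 11 and nuclear-retained RNAs in 5 of 7.

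Single genes showed the split in both mice. Mki67 was at 3813 CPM young and 5011 old in removed CD24-high barcodes and at 218 and 269 in removed CD24-low barcodes. Malat1 was at 43944 and 35083 in CD24-high and 144571 and 150418 in CD24-low removed barcodes. Col1a1 was at 2943 and 2588 against 11800 and 21184. The erythroid list summed to 2006 and 2813 CPM in CD24-high and 244 and 188 in CD24-low removed barcodes. Thus red cell precursor and proliferation genes were high in the CD24-high removed barcodes, and nuclear RNA and type I collagen in the CD24-low ones. Cd24a, the gene of the antibody's target, was at 288 and 479 CPM in low-gene, 198 and 282 in high-mitochondrial and 119 and 174 in passing barcodes. It rose by 0.70 ± 0.17 (adjusted p = 0.000168) in the high-mitochondrial and by 1.41 ± 0.26 (adjusted p = 1.29e-06) in the low-gene class, and against passing barcodes of 10 to 20% its high-mitochondrial difference was -0.30.

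**Figure D5:**
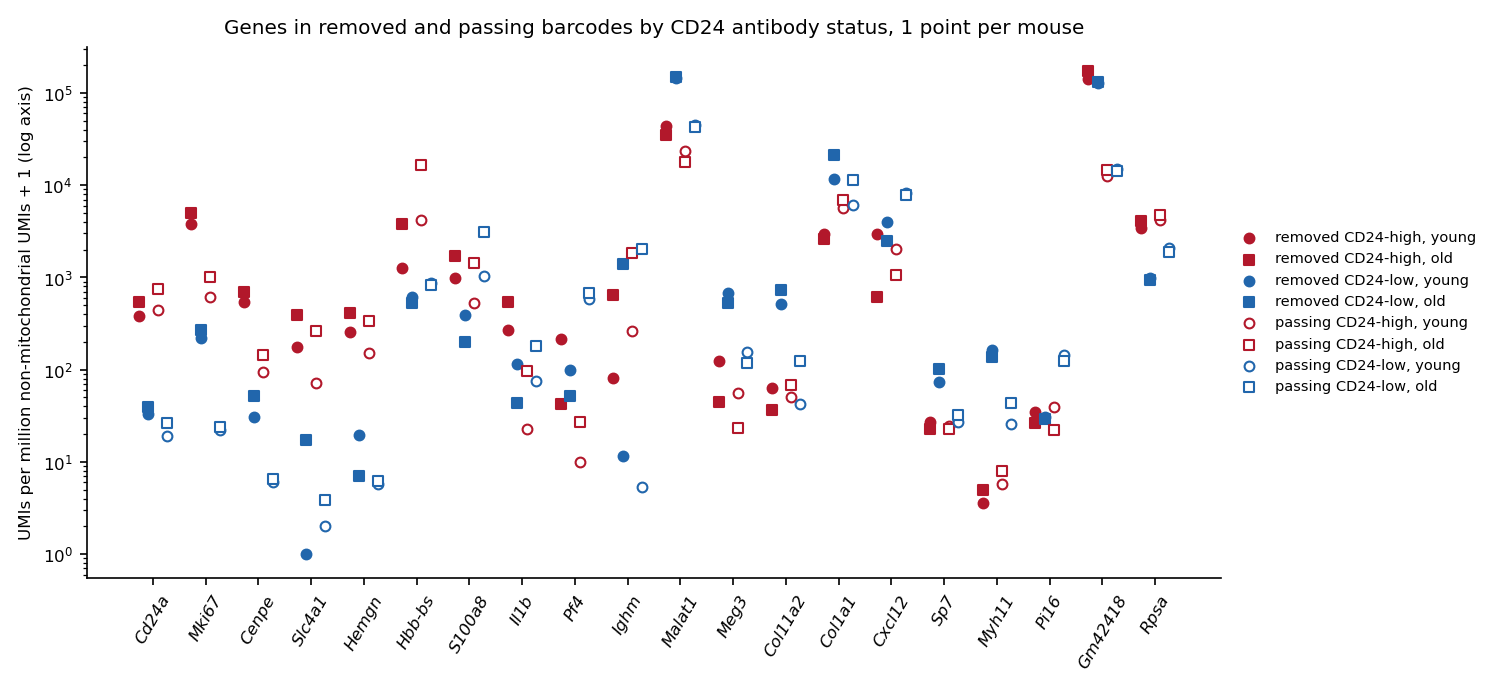
CPM of UMIs outside the mitochondrial genome plus 1 (vertical log axis) of 20 genes (horizontal axis) in removed (filled) and passing (open) barcodes, CD24-high red and CD24-low blue, young circles and old squares, 1 point per mouse. Mki67 is highest in removed CD24-high barcodes, Malat1 and Col1a1 in removed CD24-low barcodes.

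Within CD24-high barcodes, 7.18% of genes were higher and 19.6% lower in removed than in passing barcodes (1064 and 2900). That split also depends on the scaling, 1682 and 2035 with DESeq2's size factors in edgeR and 1708 and 1792 in DESeq2. Hemoglobin fell in 4 of 4 (median -2.63), matrix genes in 13 of 13, ribosomal protein genes in 78 of 82 and B lineage genes in 6 of 9. Of the 12 erythroid genes 1 rose and 4 fell, Car1, Bpgm and Klf1 among them, so within CD24-high barcodes the erythroid list was not higher among the removed. Mki67 rose by 1.95 ± 0.26, from 617 and 1015 to 3813 and 5011 CPM.

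Within CD24-low barcodes, 12.3% of genes were higher and 19.7% lower in removed than in passing barcodes (1820 and 2915). With DESeq2's size factors in edgeR the split was 2338 and 2351, and 2458 and 2005 in DESeq2. Nuclear-retained RNAs rose in 6 of 7, while ribosomal protein genes fell in 82 of 82, fibroblast genes in 8 of 8, marrow stroma genes in 7 of 8 and granulocyte genes in 9 of 11. B lineage genes rose in 4 of 9, and their summed level moved in opposite directions in the 2 mice.

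The effect of removal differed by CD24 status, by a test of the difference itself, in 1.47% of genes (218 of 14819), and in 0 without the mouse as a block. In 4 granulocyte and 4 megakaryocyte genes the signed log2 difference, removed minus passing, was higher in CD24-high than in CD24-low barcodes. In Cd79a and Vpreb3 it was lower. A higher value is not a larger change: the summed granulocyte list was at 0.94 young and 0.34 old in CD24-high barcodes. In CD24-low barcodes it was at -2.05 and -3.77. The megakaryocyte list was at 4.02 and 0.59 against -2.46 and -3.12. S100a9, the partner of S100a8, had a difference of 3.75 ± 0.44 on the log2 scale (adjusted p = 9.30e-05). Vpreb3, a pre-B receptor gene, was at 36.5 CPM young (14 UMIs) and 9.80 old (5 UMIs) in removed and 429 and 124 in passing CD24-high barcodes, and its difference was -7.04 ± 0.62. Ccl4, a chemokine gene of activated myeloid cells, was at 302 and 337 CPM in removed and 7.40 and 28.3 in passing CD24-high barcodes (difference 5.66 ± 0.54, adjusted p = 8.17e-06).

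Per barcode, the lineage make-up was described by the marker list with the most UMIs after thinning each barcode to 200 UMIs outside the mitochondrial genome, with at least 2 UMIs for a lead. This left out 385 young and 169 old low-gene barcodes. Mesenchymal lists led 41.2% of young and 30.3% of old high-mitochondrial barcodes against 64.0% and 60.1% of passing barcodes. Erythroid or hemoglobin lists led 7.22% and 15.9% against 3.52% and 5.92%, and of these high-mitochondrial barcodes 42 of 52 young and 116 of 131 old were CD24-high. No list led 49.3% and 50.5%, against 26.8% and 24.0%. The 42 young and 116 old CD24-high barcodes led by erythroid or hemoglobin lists were a minority of the 271 young and 323 old CD24-high barcodes of that class.

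Read by lineage, removal was uneven. Of barcodes led by mesenchymal lists 5.20% young (353 of 6792) and 7.45% old (271 of 3640) were removed. Of those led by erythroid or hemoglobin lists 16.5% (70 of 424) and 33.7% (169 of 501) were removed. Osteoblast-led barcodes were removed in 10.2% and 12.9%, marrow stroma-led in 5.44% and 6.45%, granulocyte-led in 2.97% and 3.79%, and fibroblast-led in 1.01% and 2.24%. Other lists differed more between the libraries: B lineage-led barcodes were removed in 2.42% young and 18.3% old, pericyte-led in 5.56% and 13.3%, and tendon-led in 3.40% and 9.21%. Of barcodes led by no list 15.1% and 26.4% were removed. Over all barcodes that entered, 8.40% and 14.5% were removed. Near ties of the leading list affected 15.5% and 15.03% of barcodes.

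The mitochondrial transcripts themselves differed little in proportion between classes. mt-Co3, a cytochrome oxidase subunit, made up 20.0% young and 21.9% old of mitochondrial UMIs in low-gene, 18.7% and 19.9% in high-mitochondrial and 16.9% and 17.7% in passing barcodes. mt-Cytb went the other way, at 12.1% and 10.6%, 13.3% and 11.6%, and 13.5% and 13.5%. mt-Nd6, the subunit encoded on the opposite strand, was at 0.142% and 0.107%, 0.134% and 0.105%, and 0.102% and 0.0732%. mt-Nd3, mt-Nd5 and mt-Atp8 were lower in the removed classes, and mt-Co1 was at 13.7% and 16.8%, 14.2% and 16.7%, and 14.7% and 16.6%. These 13 genes chose the barcodes, so their proportions are given with no test.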

How the data were processed

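UMI counts per gene and antibody tag were used as deposited by the authors, 1 matrix per mouse with RNA and antibody libraries together (4 libraries, 32285 genes and 1 antibody, whole numbers, no normalization). Cell Ranger 6.1.1 is named in the file headers and an earlier release in the study's methods. The submitters' processing notes name mm10, R 4.0.3 and Seurat 4.0. The matrices hold barcodes called as cells, with at least 500 RNA UMIs each. RNA UMIs totalled 82675434 young and 68580402 old, and antibody UMIs 5175285 and 4218985.

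Removed barcodes had under 200 genes or over 20% mitochondrial UMIs, the study's limits. Members, gene lists and comparisons were chosen with earlier results of these data known. Counts of the genes outside the mitochondrial genome were summed per mouse and class and tested with edgeR 4.0.16 in R 4.3.3 (quasi-likelihood, TMM factors, filterByExpr, the mouse as a block, two-sided, Benjamini-Hochberg threshold 0.05). All classes of a mouse come from 1 library, so the block is the mouse itself and the pairing is by design. The scripts were tested on simulated data. Named genes were the 8 largest rises and 8 largest falls past the threshold, in the same direction in both mice and with at least 20 UMIs in each mouse in the higher class, besides Cd24a, mitochondrial and hemoglobin genes and the 3 genes of each list with the most UMIs. Genes named outside that rule (among them Meg3, Runx2, Slc4a1, Sparc, Vim, Top2a, Hspe1 and Ccl4) were chosen after their values were seen. Some genes are not reported here.

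Doublets were called with Scrublet (scanpy 1.11.5) among passing barcodes, 269 young (2.67%) and 57 old (1.02%), kept in the main fits and left out in an alternative. Alternatives were other limits, thinning to 200 UMIs, passing barcodes of 10 to 20% as reference, RLE factors, DESeq2 1.42.0, no filter, no block, and each mouse alone. Exact intervals are Clopper-Pearson at 95%.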

Additional observations from a re-analysis of the deposited data

Results flagged for a closer look

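In 8 of 172 ratios of summed list levels, the young and the old mouse moved in opposite directions. With 1 mouse per age the differences between the mice were not tested, and each is given as the young minus the old log2 ratio.

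In removed against passing CD24-high barcodes, the marrow stroma list was at 0.60 young and -0.72 old, a difference of 1.32. In removed against passing CD24-low barcodes 4 lists were split: chondrocyte at 0.31 and -0.69 (difference 0.993), pericyte or smooth muscle at 0.64 and -0.27 (0.914), skeletal muscle at 1.65 and -1.38 (3.03) and B lineage at 2.76 and -0.54 (3.30). In removed CD24-high against removed CD24-low barcodes, the B lineage list was at 2.06 and -1.05 (3.11) and the heat shock list at -0.24 and 0.43 (-0.668). Nuclear-retained RNA in low-gene against passing barcodes was at 0.73 and -0.12 (0.855), and at 0.88 and 0.56, upward in both mice, without the 7 hemoglobin-rich low-gene barcodes.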

How the results depend on the processing

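With 1 mouse per age, 2 mice are all the replication, and the sums of the removed classes hold from 86500 to 927920 UMIs of tested genes. The mouse as a block is the mouse itself. Without the replicate block the count of genes was 0 for low-gene against high-mitochondrial (1149 at an unadjusted p under 0.05; DESeq2 with the block called 106) and 0 for the difference of the CD24-high and CD24-low contrasts (1770 unadjusted; DESeq2 with the block called 200). It changed 36 of 182 single-gene calls and no direction. Against passing barcodes of 10 to 20%, 1035 genes were called for high-mitochondrial and 281 for low-gene barcodes, and 28 of 172 single-gene values turned. For high-mitochondrial barcodes the log2 differences became -0.30 for Cd24a, 0.59 for Bglap, 0.22 for Comp, 0.15 for Thbs4, 0.0087 for Sox9, 0.78 for Tagln, -0.37 for Mbp, -0.43 for Hemgn, -0.13 for Acp5, 2.88 for Pf4, 3.02 for Ppbp, 0.21 for Fos and 0.20 for Junb. For low-gene barcodes they became 0.12 for Bglap, 0.00061 for Igfbp6, 0.0088 for Ly6c1, 0.81 for Comp, 0.013 for Fmod, 0.30 for Thbs4, 0.17 for Chad, -0.16 for Hemgn, 3.60 for Pf4, 3.28 for Ppbp, 0.60 for Cd34, -0.12 for Malat1, -0.046 for AY036118, 0.044 for Ftl1 and 0.36 for Mt1. Thinned to 200 UMIs a barcode, 2264 of 3530 genes tested were called for high-mitochondrial barcodes, and Ighm (0.27), Ighg2b (0.69) and, in low-gene barcodes, Car1 (0.52) turned. Without the 7 barcodes under 20% mitochondrial, Hbb-bs (-0.38), Hba-a1 (-0.73) and Hbb-bt (-0.68) turned in the low-gene class, and its hemoglobin share was 0.290% young and 0.768% old. Without the old mouse, Bglap (0.025) and Ighg2b (1.38) turned in the high-mitochondrial class, and without the young mouse they were at -1.61 and -1.96. A mitochondrial limit of 30% left 39 genes for low-gene against high-mitochondrial barcodes, a hemoglobin share of 0.254% and 0.350% in high-mitochondrial and 0.874% in old passing barcodes, and 42.5% CD24-high young high-mitochondrial barcodes. The removed share was 16.1% young and 23.1% old at a limit of 10%, 9.19% and 12.9% at 30%, and 13.2% and 18.9% with a minimum of 500 genes. As a mean of single barcodes, hemoglobin was 0.646% and 2.44% in low-gene, 0.222% and 0.395% in high-mitochondrial and 0.240% and 0.672% in passing barcodes, and without doublets 0.363% and 0.884% in passing barcodes. Without barcodes over 50% hemoglobin, an alternative added after seeing the data, the passing share was 0.234% and 0.692%. A Gaussian mixture threshold gave 57.5%, 34.0% and 12.7% CD24-high young low-gene, high-mitochondrial and passing barcodes. With 500 UMIs a barcode, mesenchymal lists led 59.95% young and 44.4% old high-mitochondrial and 78.4% and 72.4% passing barcodes, and erythroid or hemoglobin lists 11.5% and 22.9% and 4.72% and 7.39%. With a lead of at least 3 UMIs these were 29.4% and 17.5%, 52.9% and 50.4%, 4.31% and 9.83%, and 2.49% and 5.10%. RLE factors, DESeq2 and no filter on low counts kept each total of called genes within 1.5 times, but not its split by direction. Without the filter 2359 genes were higher and 3747 lower for high-mitochondrial, 459 and 1013 for low-gene, and 91 and 33 for low-gene against high-mitochondrial barcodes, and DESeq2 gave 2031 and 2132, 764 and 471, and 86 and 20. The cause of these changes was not tested.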
